A study of Rattus norvegicus with 12 samples.

Results

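The ventral hippocampus (VH) was compared with the dorsal hippocampus (DH) of Sprague-Dawley rats at postnatal day 45 (P45), and the difference is described here across genes, pathways and cell types. The comparison rests on 4 of the 12 RNA-seq libraries of the study, the 2 DH libraries and the 2 VH libraries of P45, while the other 8 come from DH and VH at P14 and P28. The labels name no treatment or transgene in any of the 6 groups and do not give the sex of the rats. DH and VH are the end pieces of a hippocampus divided into 3 along its long axis, each holding all subfields, and the middle piece is not analysed here. Nothing in the labels says whether the duplicates came from separate animals or pools, so the p-values measure the spread between these libraries, which may be technical. Sequencing libraries were made from total RNA, and levels are in FPKM, a count of fragments scaled by transcript length and by library depth.

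The hippocampus is a folded sheet of cortex in which the granule cells of the dentate gyrus, the pyramidal cells of CA3, CA2 and CA1 and the subiculum follow each other across its width. What the hippocampus connects with changes along its long axis. The amygdala, the hypothalamus and the prefrontal cortex are linked more with the ventral end. Cortical areas that carry spatial information are linked more with the dorsal end. Spatial learning is classically assigned to the dorsal end, and anxiety, fear and stress responses to the ventral end. Many genes are known to be expressed in a graded or abrupt manner along this axis, most of them in pyramidal cells. In whole tissue, more cells of a type and more RNA per cell cannot be told apart.

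The table held 17933 transcripts, of which the 14259 that lay above 0 FPKM in at least 2 of the 12 libraries were tested. The FPKM of the P45 libraries summed to between 526285 and 537102. The deposited table holds no read counts, so the number of reads behind a value cannot be read from it. Duplicates differed by a median of 0.13 (DH) and 0.12 (VH) on the log2(FPKM + 1) scale. Their Spearman correlation over transcripts was 0.988 in both regions, and that between a DH and a VH library lay between 0.979 and 0.983. A transcript was called when limma, fitted to log2(FPKM + 1) of all 12 libraries, gave a fold change above 1.5 and a p below 0.05 after Benjamini-Hochberg adjustment. The added 1 FPKM shrinks the differences of low transcripts. A listed 0 can be a failed estimate rather than an absent transcript: Npy and Fibcd1, known genes of the hippocampus, were listed at 0 in all 4 libraries.

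Of the 14259 transcripts, 256 (1.8%) were called higher in VH and 239 (1.68%) higher in DH, 495 (3.47%) in all. In each of the 495 both libraries of the higher region lay above both of the other, which held for 47.5% of all transcripts tested. The median log2 difference was 0.93 among the VH calls and −0.86 among the DH calls, against 0.00 over all transcripts tested. A fold change above 2 was reached by 114 VH and 74 DH calls, and one above 4 by 15 and 9. The DH calls were the more abundant, with a median level of 18.4 FPKM against 9.52 for the VH calls. Fitted to the 4 P45 libraries alone, limma called 0 transcripts, with 368 higher in VH and 341 higher in DH by more than 1.5-fold before adjustment (p below 0.05). Without the second VH library, 80 and 71 were called, and without the first DH library 100 and 88. Of the 168 calls among the leading genes, the gene and marker lists and the other genes named, 47 held without each P45 library in turn. Where a call was lost, the library given is the one whose removal raised the adjusted p most, and several of these calls were also lost without another library.

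**Figure D1:**
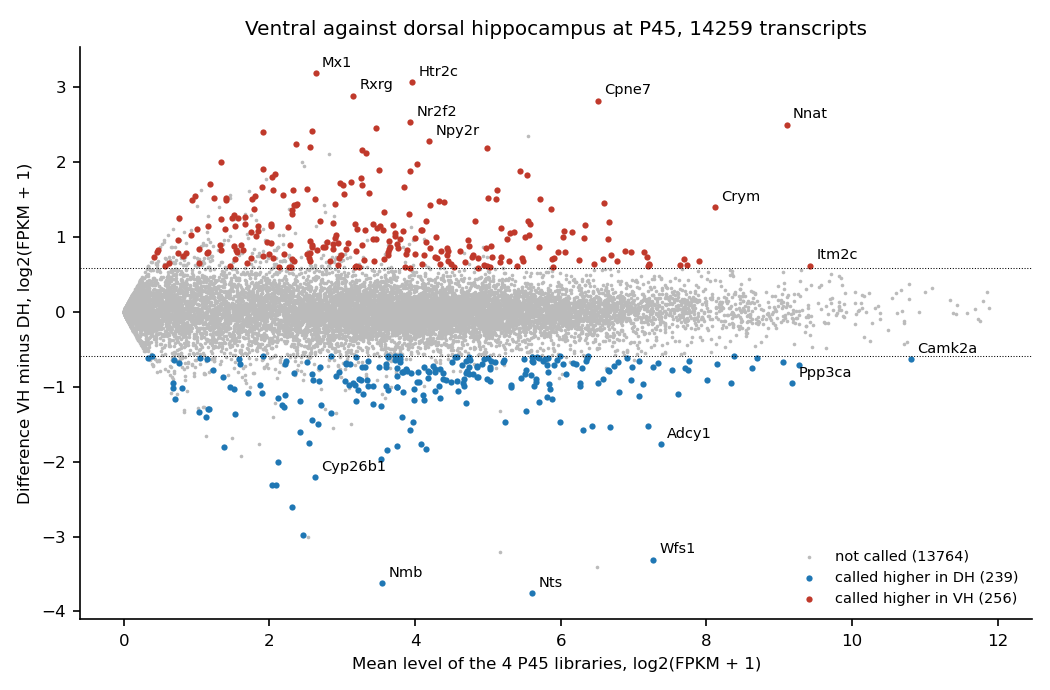
Difference between VH and DH (VH minus DH, log2(FPKM + 1)) against the mean level of the 4 P45 libraries for the 14259 transcripts tested, with the 256 VH calls in red, the 239 DH calls in blue and dotted lines at a fold change of 1.5. Calls range from transcripts below 1 FPKM (13 VH and 8 DH calls) to Camk2a above 1000 FPKM.

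Neuropeptides and a marker of CA1 led the differences toward DH. Nts, the precursor of neurotensin, was at 99 and 79.8 FPKM in DH and at 8.81 and 3.52 in VH, a log2 difference of −3.75 (SE 0.46, limma adjusted p = 0.00511). Nmb, which encodes neuromedin B, a peptide of the bombesin family, was at 24.2 and 17 FPKM in DH and 0.384 and 1.15 in VH (−3.63, SE 0.35, adjusted p = 0.00211). Both peptides were thus abundant in each DH library and low in each VH library. Wfs1, wolframin of the endoplasmic reticulum and a classical marker of CA1 pyramidal cells, was at 348 and 206 FPKM in DH and 41.3 and 16.5 in VH (−3.31, SE 0.41, adjusted p = 0.00548), with its duplicates far apart in VH. Cd3e, a chain of the T cell receptor complex, was at 11.4 and 6.06 FPKM in DH and at 0.423 and 0 in VH (−2.97). No other blood marker was called, as given below with the cell types. Other leading genes toward DH were Cartpt, the precursor of the CART peptides (−2.32), Ppl, the cytoskeletal linker periplakin (−2.32), Cyp26b1, which breaks down retinoic acid (−2.21), Robo3, a guidance receptor (−2.01), and Htr1b, the serotonin 1B receptor (−1.96). The calls of Cd3e and Cartpt were lost without the second VH library (adjusted p = 0.0664 and 0.0756), and that of Htr1b without the first DH library (adjusted p = 0.101).

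Toward VH, the leading genes were an interferon-induced GTPase, receptors and a nuclear receptor partner of retinoid signalling. Mx1, the GTPase, was at 0.394 and 4.18e-05 FPKM in DH and 7.02 and 13.5 in VH (3.19, SE 0.39, adjusted p = 0.00498), and with its rows summed the difference was 3.2. Htr2c, the serotonin 2C receptor, was at 2.94 and 1.53 FPKM in DH and 18 and 35.8 in VH (3.07, SE 0.40, adjusted p = 0.00617), its second VH library being the higher. Rxrg, retinoid X receptor gamma, was at 0.949 and 1.28 FPKM in DH and 15.3 and 13.9 in VH (2.89, SE 0.17, adjusted p = 0.000572). The regions were far apart for all 3, and the duplicates of Rxrg were close to each other. Cpne7, a copine that binds membranes in a calcium-dependent manner, was at 23.8 and 19.3 FPKM in DH and 149 and 168 in VH (2.82, adjusted p = 0.000791). Nnat, the imprinted gene of neuronatin, was the most abundant of the leading 10, at 142 and 187 FPKM in DH and 846 and 1017 in VH (2.5, SE 0.19, adjusted p = 0.000889; rows summed 2.45). Npy2r, the neuropeptide Y receptor Y2, was at 5.17 and 5.28 FPKM in DH and 28.6 and 29.98 in VH (2.28, SE 0.23, adjusted p = 0.00222), with duplicates that nearly coincided. The others were Nr2f2, the transcription factor COUP-TFII (2.53), Kcnf1, a modulatory potassium channel subunit (2.45), Fibin, a secreted protein (2.41), and Dlk1, an imprinted Notch ligand relative (2.4). The calls of Fibin and Dlk1 were lost without the first DH library (adjusted p = 0.0622 and 0.098).

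**Figure D2:**
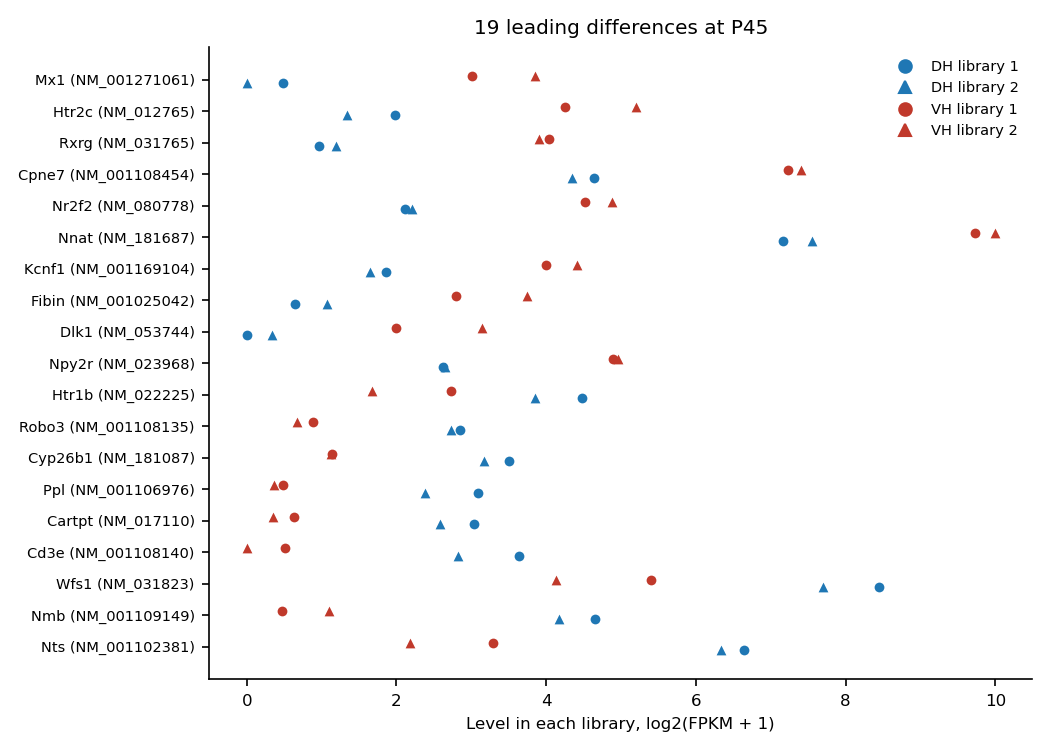
Level of 19 of the largest called differences in each P45 library, as log2(FPKM + 1), with DH in blue, VH in red, circles for library 1 and triangles for library 2. As for every call, the VH and DH symbols of all 19 do not overlap, which held for 47.5% of all transcripts tested. The duplicates lie farthest apart for Wfs1, Dlk1 and Nts among others.

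The promoters of the calls were searched for the letters of 5 common motifs. RefSeq (GRCr8) held a single promoter, 250 bases before to 50 bases after the start, for 10420 of the 13462 symbols tested, 176 of them of VH calls and 176 of DH calls. The letters TGANTCA, which read the same on both strands and include the AP-1 sequences TGACTCA and TGAGTCA, were in 5.4% of all these promoters, 5.11% of those of VH calls and 4.55% of those of DH calls. TGACGTCA, the cAMP response element, was in 2.98%, 1.14% and 2.84%, and AGGTCA, the nuclear receptor half-site, on either strand in 12.7%, 9.66% and 10.8%. The E-box CAGATG was in 11.7%, 13.6% and 11.4% and TATAAA in 7.81%, 9.66% and 5.11%, again on either strand. None of these differences in share was tested. A stretch with TGANTCA in capitals and 30 bases on each side is shown for 3 genes with large differences, Nts and Cyp26b1 (higher in DH) and Npy2r (higher in VH), chosen after the matches were seen. Each lies on the minus strand, at chr7:39461064-39461130, chr4:118616286-118616352 and chr2:170203212-170203278, and the first capital lies 212, 146 and 148 bases before the start.
Nts: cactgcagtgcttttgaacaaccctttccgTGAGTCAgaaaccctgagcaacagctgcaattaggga
Cyp26b1: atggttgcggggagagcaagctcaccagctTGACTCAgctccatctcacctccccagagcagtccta
Npy2r: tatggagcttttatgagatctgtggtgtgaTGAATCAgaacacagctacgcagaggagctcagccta
The match is a description of the letters and was not tested as a binding site.

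Genes known from earlier work to mark the ends of the long axis went in the known direction wherever their transcript was called, with 1 exception. Of 14 tested genes known as dorsal, 8 were higher in DH (median log2 difference over the list −1.36, against 0.00 over all transcripts), and of 20 known as ventral, 14 were higher in VH and 0 in DH (median 1.68). Over all transcripts 1.8% were called higher in VH and 1.68% in DH, the background of the counts of every list given here. With the transcripts of a symbol summed, Dcn, the proteoglycan decorin listed as ventral, was also called higher in DH (−0.62, limma adjusted p = 0.0472). That is a separate fit and adjustment, in which adjusted p also moved for symbols with 1 transcript. Adamts2, with 1 transcript, went from 0.0131 to 0.00685 (limma adjusted p). The 2 long-axis lists include the genes the study used as checks. They were compiled with results of these data known, so they are no independent evidence of direction. Cyp26b1 was at 10.4 and 8.03 FPKM in DH and 1.19 and 1.19 in VH (adjusted p = 0.00564). Cpne2, another copine, was at 9.28 and 11.6 FPKM in DH and 45.2 and 57.3 in VH (2.19, SE 0.22, adjusted p = 0.00265). Nr2f2 was at 3.31 and 3.64 FPKM in DH and 21.8 and 28.4 in VH (adjusted p = 0.00364). As in every call, the regions did not overlap in these 3. The exception was Crym, a thyroid hormone binding protein listed as dorsal, which was at 146 and 159 FPKM in DH and 390.3 and 415 in VH (1.4, SE 0.10, adjusted p = 0.000791). Hdc, the histamine-forming enzyme, was higher in DH (−1.41, adjusted p = 0.0177), and Plagl1, an imprinted zinc finger factor, higher in VH (2.24, adjusted p = 0.0158). The calls of Hdc and Plagl1 were lost without the second VH library (adjusted p = 0.104 and 0.115). Not called were Nov (−1.32, adjusted p = 0.105) among the dorsal and Tpbg (1.3, adjusted p = 0.102) among the ventral genes. Of the reference genes, Actb (−0.24, adjusted p = 0.0481) and Gapdh (0.32, adjusted p = 0.0424) were both below the fold change threshold, and 0 of 15 were called.

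**Figure D3:**
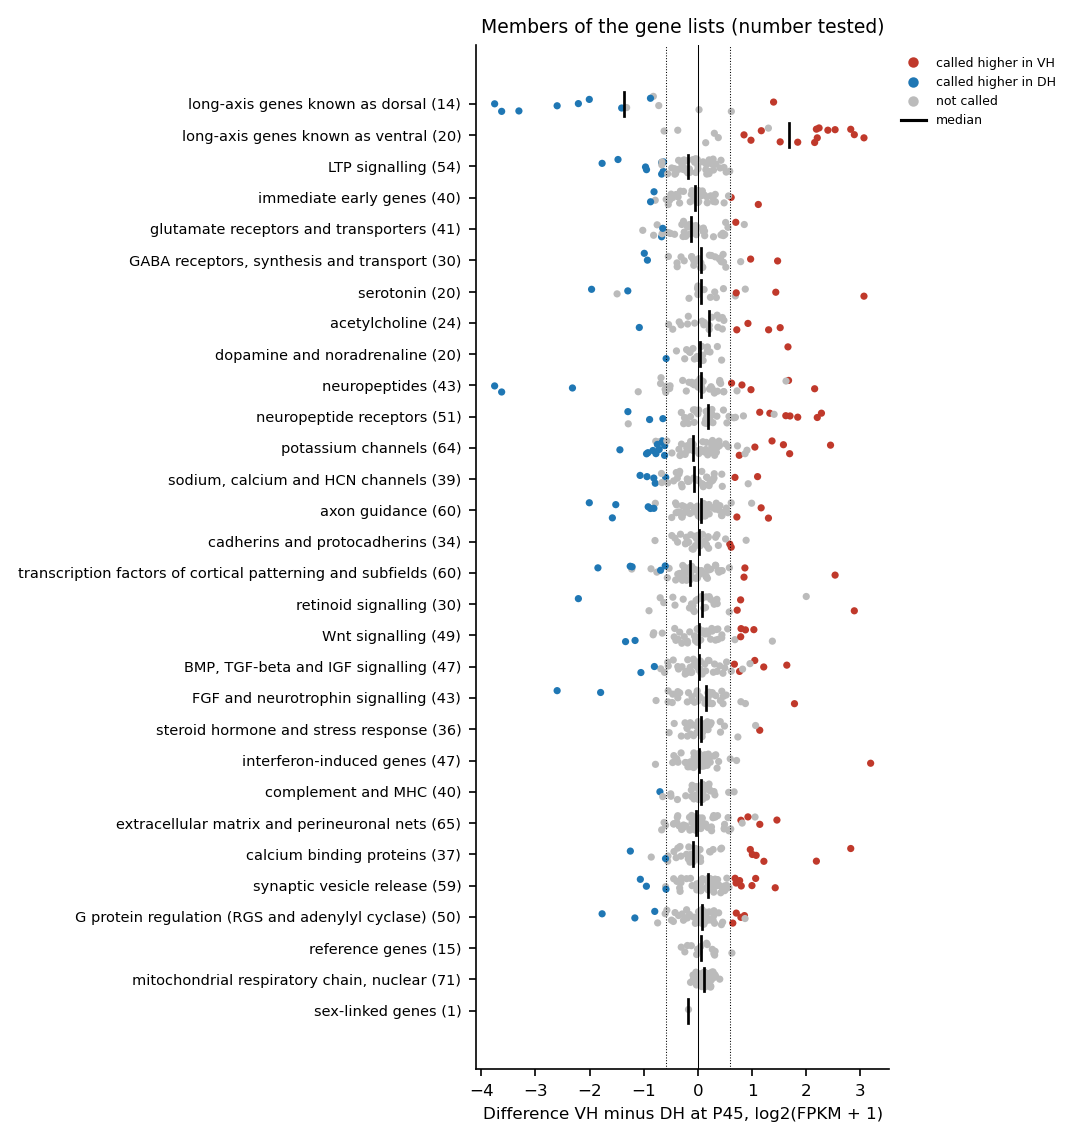
Log2 difference at P45 (VH minus DH, log2(FPKM + 1)) of every tested member of each gene list, with calls in red (VH) or blue (DH), the rest in grey, the list's median as a black bar and dotted lines at a fold change of 1.5. Apart from the 2 long-axis lists, the medians lie between −0.19 and 0.21, with calls to both sides in most lists.

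Of 54 signalling genes of long-term potentiation, the lasting strengthening of synapses, 8 (14.8%) were higher in DH and 0 in VH (median −0.17), against 1.68% and 1.8% of all transcripts, and 46 were not called. In the separate fit with the transcripts of a symbol summed, 9 were higher in DH and 1 in VH. The latter was Camk2d, the delta subunit of CaM kinase II (0.59, limma adjusted p = 0.0414). The largest difference of the list by transcript was 0.59 as well. The calcium-stimulated adenylyl cyclase Adcy1 was at 271 and 238 FPKM in DH and 90.9 and 59.8 in VH (−1.77, SE 0.25, adjusted p = 0.00807). Camk4, a calcium/calmodulin-dependent kinase of the nucleus, was at 58.1 and 49.8 FPKM in DH and 22.2 and 15.7 in VH (−1.48, SE 0.19, adjusted p = 0.00599). Camk2a, the alpha subunit of CaM kinase II and the most abundant of all calls, was at 2209 and 2161 FPKM in DH and 1497 and 1321 in VH (−0.63, SE 0.07, adjusted p = 0.00435). All 3 kinase and cyclase genes lay higher in each DH library, Adcy1 by the largest fold. The beta subunit Camk2b (−0.67), the kinase Camkk2 that acts on CaM kinases (−0.64), the calcineurin catalytic subunit Ppp3ca (−0.95) and the phosphatase inhibitor Ppp1r1a (−0.97) were also higher in DH. The eighth was Gria2, an AMPA receptor subunit (−0.67 for 1 transcript, but −0.30 and not called with its transcripts summed, adjusted p = 0.0837). The calls of Camkk2, Ppp3ca and Gria2 were lost without the second VH library (adjusted p = 0.146, 0.109 and 0.105), and that of Adcy1 without the first DH library (adjusted p = 0.0617), and Camk2a fell below a fold change of 1.5 without the second VH library.

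Immediate early genes, transcribed within minutes of neuronal activity, were called in both directions. Of 40, 2 were higher in VH and 2 in DH (median −0.05), or 2 and 4 with the transcripts of a symbol summed. Fosl2, a Fos-family factor, was at 19.4 and 24.3 FPKM in DH and 53.1 and 43.7 in VH (1.12, adjusted p = 0.0040), and Nr4a3, an orphan nuclear receptor, at 25.1 and 23.2 FPKM in DH and 39.5 and 35.5 in VH (0.61, adjusted p = 0.042). Higher in DH were Ier5 (−0.87, adjusted p = 0.011) and Gadd45g (−0.81, adjusted p = 0.0304). Fosl2 was thus the largest of the 4 and the only one to keep its call without each P45 library in turn. The call of Nr4a3 was lost without the second DH library (adjusted p = 0.174), that of Ier5 without the second VH library (adjusted p = 0.0842) and that of Gadd45g without the first DH library (adjusted p = 0.167).

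Receptors for the fast transmitters held 3 calls among 41 glutamate genes and 4 among 30 GABA genes, against 3.47% of all transcripts. Of the 41 genes of glutamate receptors and transporters, 1 was higher in VH, Neto1, an auxiliary subunit of kainate receptors, at 52.9 and 61.3 FPKM in DH and 90.3 and 96.1 in VH (0.70, adjusted p = 0.0079). In addition to Gria2, Cnih2, an auxiliary AMPA receptor subunit, was higher in DH, at 269 and 258 against 184 and 153 FPKM (−0.65, adjusted p = 0.0188). Among the GABA genes the receptor subunits parted: Gabra3 was at 8.25 and 8.38 FPKM in DH and 17.3 and 17.3 in VH (0.97, adjusted p = 0.0387). Gabrd, the delta subunit of receptors outside the synapse, was at 25.1 and 26.2 FPKM in DH and 13.9 and 11 in VH (−0.99, adjusted p = 0.0155), and Gabra4, its common partner in granule cells, at 71.4 and 59.96 FPKM in DH and 36.9 and 31 in VH (−0.93, adjusted p = 0.0177). Hap1, a huntingtin-associated trafficking protein, was higher in VH (1.47, limma adjusted p = 0.026). The paper's quantitative PCR found Hap1 enriched in the opposite direction at P45. The medians were −0.14 for the glutamate and 0.05 for the GABA list. None of these calls held without each P45 library in turn. The calls of Neto1, Cnih2, Gabra3, Gabrd, Gabra4 and Hap1 were lost without the second VH library (adjusted p = 0.0678, 0.122, 0.176, 0.11, 0.126 and 0.161).

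Receptors of the modulatory transmitters parted as well. Of 20 serotonin genes, 3 were higher in VH and 2 in DH (median 0.07). In addition to Htr2c, Htr7 was at 1.43 and 2.22 FPKM in DH and 6.87 and 6.31 in VH (1.44, SE 0.24, adjusted p = 0.015), and Htr5a was higher in VH by 0.71 (adjusted p = 0.0494). Htr1b, which inhibits release from axon terminals, went the other way, at 21.2 and 13.4 FPKM in DH and 5.63 and 2.17 in VH (adjusted p = 0.0164). Different serotonin receptors thus lay higher in opposite regions. Tph2, the serotonin-forming enzyme of raphe neurons, was low in both regions, at 2.11 and 2.22 FPKM in DH and 0.219 and 0.363 in VH (−1.3, adjusted p = 0.00949). Of 24 acetylcholine genes, 4 were higher in VH and 1 in DH (median 0.21). Lypd1, a modulator of nicotinic receptors, was at 15.3 and 16 FPKM in DH and 44.6 and 48.8 in VH (1.52, adjusted p = 0.00117). The nicotinic subunits Chrna4 (1.31) and Chrna7 (0.72) and the muscarinic receptor Chrm5 (0.92) were higher in VH, and Chrm2 was higher in DH (−1.08). By quantitative PCR, the paper found Chrna4, Chrna7 and Tph2 enriched in the opposite direction at P45. Of 20 dopamine and noradrenaline genes, the receptor Adra2a was higher in VH, at 0.707 and 0.869 FPKM in DH and 4.07 and 5.32 in VH (1.66, adjusted p = 0.0079), and Adrb3, under 1 FPKM, in DH (−0.59). Of these receptors and enzymes, the calls of Chrna4, Chrna7, Chrm5, Chrm2 and Adra2a were lost without the second VH library (adjusted p = 0.113, 0.201, 0.107, 0.109 and 0.0662), and those of Htr7, Htr5a, Tph2 and Adrb3 without the first DH library (adjusted p = 0.0926, 0.231, 0.0595 and 0.156).

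Peptides and their receptors were called at both ends of the axis. Of 43 peptide genes, 5 were higher in VH and 3, the leading Nts, Nmb and Cartpt, in DH (median 0.06). Grp, gastrin-releasing peptide and the other member of the bombesin family measured, was at 3.06 and 2.06 FPKM in DH and 13.7 and 15.8 in VH (2.16, SE 0.32, adjusted p = 0.00949). Nmb and Grp, both bombesin-like, were therefore high in opposite regions. Cck, the precursor of cholecystokinin, was at 176 and 157 FPKM in DH and 259 and 254 in VH (0.62, adjusted p = 0.0166), and Penk, the precursor of enkephalins, at 14.9 and 12.7 FPKM in DH and 25.4 and 24.6 in VH (0.81, adjusted p = 0.0352). Nppa, atrial natriuretic peptide (1.67), and Resp18, a neuroendocrine secretory protein (0.98), were the other 2. Of 51 peptide receptors, 7 were higher in VH and 3 in DH (median 0.18). After Npy2r came Tacr3, the neurokinin B receptor, at 1.37 and 0.847 FPKM in DH and 7.89 and 9.45 in VH (2.2, adjusted p = 0.00798), Trhr, the receptor of thyrotropin-releasing hormone, at 0.632 and 0.902 FPKM in DH and 3.55 and 7.78 in VH (1.84), and Sstr1, a somatostatin receptor, at 3.24 and 3.78 FPKM in DH and 11.9 and 15.7 in VH (1.7, adjusted p = 0.0012). Ednra, an endothelin receptor (1.62), Oprl1, the nociceptin receptor (1.33), and Crhr1, the receptor of corticotropin-releasing hormone (1.14), were also higher in VH. Higher in DH were the orexin receptor Hcrtr1 (−1.29), the somatostatin receptor Sstr2 (−0.89) and the relaxin receptor Rxfp1 (−0.65). The 2 somatostatin receptors called thus went in opposite directions. Of these, the calls of Grp, Cck, Nppa, Resp18, Tacr3, Ednra, Crhr1 and Rxfp1 were lost without the second VH library (adjusted p = 0.0756, 0.101, 0.173, 0.122, 0.0682, 0.0576, 0.0619 and 0.204), that of Penk without the second DH library (adjusted p = 0.161) and that of Trhr without the first DH library (adjusted p = 0.122).

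Potassium channels, which set resting potential and firing, were called in both directions, 6 of 64 (9.38%) higher in VH and 11 (17.2%) in DH, against 1.8% and 1.68% of all transcripts (median −0.08). Kcnf1 was at 2.64 and 2.13 FPKM in DH and 14.9 and 20.3 in VH (adjusted p = 0.00417). The inward rectifier Kcnj16 was at 3.53 and 2.12 FPKM in DH and 9.97 and 12.5 in VH (1.69), and the leak channel Kcnk9, TASK-3, at 2.21 and 4.13 FPKM in DH and 12.1 and 10.2 in VH (1.58). Kcnq5, a subunit of the M-current, was also higher in VH (1.37, adjusted p = 0.000316), as were the Kv4 auxiliary subunit Kcnip3 (1.05) and the Kv4.3 subunit Kcnd3 (0.76). By contrast the Kv4.2 subunit Kcnd2, the main A-type channel of pyramidal dendrites, was higher in DH (−0.66, adjusted p = 0.00862). The largest DH difference was that of Kcnh7, an ERG channel, at 9.49 and 6.18 FPKM in DH and 2.45 and 1.96 in VH (−1.44, adjusted p = 0.0174). The G protein-gated rectifiers Kcnj6 (−0.83) and Kcnj3 (−0.72), the KATP pore Kcnj11 (−0.95), the rectifier Kcnj4 (−0.66) and the leak channels Kcnk2 (−0.92 for 1 transcript, but −0.61 and not called with its transcripts summed, adjusted p = 0.164) and Kcnk1 (−0.62) were higher in DH. So were Kcnh5 (−0.78), Kcns2 (−0.75) and the beta subunit Kcnab1 (−0.61). Kcnf1, Kcnq5 and Kcnip3 kept their calls without each P45 library in turn, while the calls of Kcnj16, Kcnd3, Kcnd2, Kcnh7, Kcnj6, Kcnj3, Kcnj11, Kcnk2, Kcnh5, Kcns2 and Kcnab1 were lost without the second VH library (adjusted p = 0.0891, 0.119, 0.0693, 0.122, 0.0693, 0.11, 0.172, 0.20, 0.183, 0.0957 and 0.0527), and those of Kcnk9, Kcnj4 and Kcnk1 without the first DH library (adjusted p = 0.0926, 0.203 and 0.0527).

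Of 39 sodium, calcium, HCN and TRPC channel genes, 2 were higher in VH and 5 in DH (median −0.08). The T-type calcium channels parted, with Cacna1h at 30.1 and 34.2 FPKM in DH and 18.6 and 17.1 in VH (−0.81, adjusted p = 0.00511) and Cacna1i higher in VH (0.68, adjusted p = 0.012). The TRPC channels parted as well: Trpc6 was at 20.6 and 20.4 FPKM in DH and 10.9 and 9.54 in VH (−0.94), Trpc5 was higher in DH (−0.79), and Trpc7 was at 0.644 and 0.686 FPKM in DH and 2.43 and 2.72 in VH (1.1, adjusted p = 0.00164), higher in VH. The sodium channel beta subunits Scn4b (−1.07) and Scn3b (−0.59) were higher in DH. Among the genes given here, the calls of Cacna1i, Trpc6, Trpc5 and Scn3b were lost without the second VH library (adjusted p = 0.0896, 0.198, 0.0932 and 0.20), and that of Scn4b without the first DH library (adjusted p = 0.0915).

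Of 59 genes of the release machinery of synaptic vesicles, 7 (11.9%) were higher in VH and 3 (5.08%) in DH, against 1.8% and 1.68% of all transcripts (median 0.19), and 49 were not called. Otof, otoferlin, was at 1.59 and 2.02 FPKM in DH and 6.68 and 6.38 in VH (1.43, adjusted p = 0.00798), and the vesicle GTPases Rab3c (50.9 and 39.6 FPKM in DH and 87.3 and 104 in VH, 1.07) and Rab3b (11.3 and 12.9 FPKM in DH and 24.8 and 25.3 in VH, 1.0) lay higher in VH. Sv2b, a vesicle glycoprotein, was at 102 and 103 FPKM in DH and 175 and 184 in VH (0.80, SE 0.04, adjusted p = 0.000316), with close duplicates in both regions. Cbln2 (0.77), complexin 1 (0.70, Cplx1) and synaptotagmin 17 (0.69, Syt17) were the other VH calls. Toward DH stood the calcium sensor Syt7, at 142 and 158 FPKM in DH and 69.4 and 73.1 in VH (−1.06, SE 0.07, adjusted p = 0.000791), with the Rab3 effector rabphilin (−0.95, Rph3a) and the priming factor Unc13c (−0.59). Of these, the calls of Rab3c, Cbln2 and Cplx1 were lost without the second VH library (adjusted p = 0.117, 0.175 and 0.0555), those of Otof and Rab3b without the first DH library (adjusted p = 0.0613 and 0.208) and that of Unc13c without the second DH library (adjusted p = 0.172).

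Calcium-binding proteins were higher in VH for 6 of 37 genes and in DH for 2 (median −0.08). In addition to Cpne7 and Cpne2, Hpcal1, a neuronal calcium sensor, was at 8.96 and 10.4 FPKM in DH and 23.4 and 24.2 in VH (1.22, adjusted p = 0.00604). Necab1 (1.08), Caln1 (1.01) and Calb2, calretinin (0.97), were also higher in VH. Of the copines, Cpne9 went the other way, at 4.0 and 6.78 FPKM in DH and 1.68 and 1.58 in VH (−1.25, adjusted p = 0.0196), as did Cpne5 (−0.60, adjusted p = 0.0493). Among 50 genes of G protein regulation, 4 were higher in VH and 3 in DH (median 0.07). Rgs4 was at 23.8 and 19.2 FPKM in DH and 38.4 and 40.8 in VH (0.86, adjusted p = 0.0104), while Rgs14, a regulator concentrated in CA2, was at 87.2 and 73.7 FPKM in DH and 37.7 and 32.9 in VH (−1.16, adjusted p = 0.00103). The other calls were Pde1a (0.79), Gnai1 (0.71) and Gng3 (0.64) toward VH and Gng7 (−0.80), beside Adcy1, toward DH. The calls of Hpcal1, Necab1, Caln1, Calb2, Cpne9, Cpne5, Rgs4, Pde1a and Gng3 were lost without the second VH library (adjusted p = 0.0555, 0.128, 0.0501, 0.19, 0.122, 0.247, 0.0804, 0.139 and 0.0616), and that of Gng7 without the first DH library (adjusted p = 0.0824).

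Guidance molecules, which steer growing axons and remain on mature synapses, included 3 of 60 higher in VH and 6 in DH, against 1.8% and 1.68% of all transcripts (median 0.06). Slit2, a secreted ligand, was at 7.14 and 8.35 FPKM in DH and 19.6 and 21.5 in VH (1.3, SE 0.14, limma adjusted p = 0.00335). Robo3, of the Robo receptor family, was at 6.21 and 5.63 FPKM in DH and 0.853 and 0.598 in VH (limma adjusted p = 0.00121). Both held without each P45 library in turn. Of the ephrin system, the receptors Epha7, at 118 and 116 FPKM in DH and 47.2 and 31.3 in VH (−1.58, SE 0.25, adjusted p = 0.0118), and Epha5 (−0.88, adjusted p = 0.0271) were higher in DH, and the ligand Efnb2 in VH (1.17, adjusted p = 0.0117). Sema7a, a membrane-anchored semaphorin, was at 217 and 215 FPKM in DH and 83.2 and 67.3 in VH (−1.52, SE 0.11, adjusted p = 0.000791). Sema5a (−0.92) and the semaphorin receptor Plxnd1 (−0.81) were higher in DH, and Sema4g in VH (0.72). Of 34 cadherins and protocadherins, Cdh7 (1.47 and 0.907 FPKM in DH and 2.33 and 2.32 in VH, 0.61) and Cdh9 (20.6 and 24.1 FPKM in DH and 32 and 36.2 in VH, 0.59) were higher in VH and 0 in DH (median 0.02). Of the other genes given, the calls of Epha7, Epha5, Efnb2, Sema5a, Plxnd1, Sema4g, Cdh7 and Cdh9 were lost without the second VH library (adjusted p = 0.0779, 0.167, 0.0896, 0.147, 0.158, 0.152, 0.168 and 0.11).

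Transcription factors of cortical patterning were higher in VH for 3 of 60 and in DH for 5 (median −0.14). Beside Nr2f2, Sox5 (0.87, adjusted p = 0.010) and the ETS factor Etv1 (15.9 and 12.9 FPKM in DH and 22.7 and 31.2 in VH, 0.85) were higher in VH. Toward DH, the POU factor Pou3f1 was at 20.4 and 15.6 FPKM in DH and 6.11 and 2.86 in VH (−1.85, adjusted p = 0.020), and the T-box factor Tbr1 at 15.7 and 15 FPKM in DH and 5.74 and 6.01 in VH (−1.25, SE 0.11, adjusted p = 0.00145). Bcl11b, also named Ctip2, was at 37.2 and 32.9 FPKM in DH and 16.9 and 12.4 in VH (−1.22, adjusted p = 0.015), and Neurod2 (−0.69) and Bhlhe40 (−0.60) were the other DH calls. Tbr1 had close duplicates. Retinoid signalling had calls at both ends, with 3 of 30 genes higher in VH and 1 in DH (median 0.07): the receptor Rxrg, the retinol transporter Stra6 (0.202 and 0.243 FPKM in DH and 0.979 and 1.25 in VH, 0.79) and the lipase Lpl (31.2 and 33.4 FPKM in DH and 50.1 and 58.3 in VH, 0.73) in VH, and the degrading enzyme Cyp26b1 in DH. The calls of Etv1, Bcl11b, Stra6, Sox5, Neurod2 and Bhlhe40 were lost without the second VH library (adjusted p = 0.131, 0.104, 0.131, 0.0707, 0.0555 and 0.24), and that of Pou3f1 without the first DH library (adjusted p = 0.123).

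Growth factor pathways held calls in both directions. Of 49 Wnt genes, the ligand Wnt7b (25.7 and 19.2 FPKM in DH and 40.9 and 42.5 in VH, 0.88), the receptor Fzd1 (0.79) and the secreted inhibitors Sfrp1 (0.80) and Sfrp4 (1.03) were higher in VH. The ligands Wnt10a (2.41 and 1.49 FPKM in DH and 0.234 and 0.0777 in VH, −1.34) and Wnt3a (1.44 and 1.05 FPKM in DH and 0 and 0 in VH, −1.16) were higher in DH (list median 0.01). Of 47 genes of BMP, TGF-beta and IGF signalling, 5 were higher in VH and 2 in DH (median 0.02), among them the ligands Bmp3 (2.65 and 1.08 FPKM in DH and 8.16 and 7.07 in VH, 1.64) and Tgfb3 (2.49 and 3.3 FPKM in DH and 7.46 and 8.58 in VH, 1.22) toward VH. The BMP inhibitor Nog (0.67) and the IGF binding proteins Igfbp2 (1.05) and Igfbp5 (0.77) were also higher in VH. Smad3, which carries the TGF-beta signal, was at 25.9 and 24.3 FPKM in DH and 13.3 and 10.1 in VH (−1.05, adjusted p = 0.00679), and Fstl4 was the other DH call (−0.80). Of 43 FGF and neurotrophin genes, the intracellular FGF homologue Fgf11 was higher in VH (3.22 and 3.2 FPKM in DH and 17 and 10.7 in VH, 1.78, adjusted p = 0.00596; list median 0.14). Ntf3, neurotrophin-3, was at 17.4 and 22.7 FPKM in DH and 4.87 and 5.14 in VH (−1.8, SE 0.17, adjusted p = 0.00184) for its main transcript. Of these, the calls of Wnt7b, Fzd1, Sfrp4, Wnt10a, Bmp3, Tgfb3, Nog, Igfbp2 and Igfbp5 were lost without the second VH library (adjusted p = 0.126, 0.109, 0.131, 0.0555, 0.126, 0.142, 0.188, 0.188 and 0.25), and those of Sfrp1, Wnt3a, Smad3 and Fstl4 without the first DH library (adjusted p = 0.209, 0.0745, 0.0546 and 0.11).

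Of 65 genes of the extracellular matrix, 4 (6.15%) were higher in VH and 0 in DH, against 1.8% and 1.68% of all transcripts (median −0.03), or 5 and 2 with the transcripts of a symbol summed. Timp2, an inhibitor of metalloproteinases, was at 49.4 and 50.9 FPKM in DH and 127 and 153 in VH (1.46, SE 0.15, adjusted p = 0.00273). The proteoglycan Spock1 was at 79.9 and 101 FPKM in DH and 146 and 168 in VH (0.79, adjusted p = 0.0151), and the collagen-processing protease Adamts2 (1.14) and the glypican Gpc3 (0.92) were the others. Timp2 stood apart as the largest and as the only one of the 4 to keep its call without each P45 library in turn. The calls of Spock1, Adamts2 and Gpc3 were lost without the second VH library (adjusted p = 0.111, 0.0886 and 0.183).

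Each of the lists of immune and stress genes held 1 call, a share near the 3.47% of all transcripts, and that of the respiratory chain 0. Of 47 interferon-induced genes, Mx1 was the only call (median 0.02). The most abundant genes of the list were not called, with Ifi27 at 92.4 and 36.3 FPKM in DH and 97.8 and 40.9 in VH (0.12, adjusted p = 0.959) and Irf3 at 15.5 and 14.3 FPKM in DH and 14.4 and 12.4 in VH (−0.15, adjusted p = 0.729). Of 40 complement and MHC genes, Serping1, the C1 inhibitor, was higher in DH (3.06 and 2.47 FPKM in DH and 1.2 and 1.42 in VH, −0.70, adjusted p = 0.0364; list median 0.06). Of 36 genes of steroid hormone and stress response, Crhr1 was the only call, at 1.45 and 1.59 FPKM in DH and 4.16 and 4.98 in VH (adjusted p = 0.0072; list median 0.05). Of 71 nuclear genes of the respiratory chain, 0 were called, with differences from −0.14 to 0.40, 64 of them above 0 (median 0.11). The call of Serping1 was lost without the first DH library (adjusted p = 0.185), and that of Crhr1 without the second VH library (adjusted p = 0.0619).

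Markers of the hippocampal subfields lay apart along the axis for CA1 and the dentate gyrus. The lists are not independent of the long-axis lists above. Wfs1 and Mpped1 of the CA1 list and Lct of the granule cell list are also listed there as dorsal. Marker lists given below share long-axis genes too, among them Nmb, Dlk1 and Etv1. Of 12 tested CA1 markers, 2 were higher in DH, Wfs1 and Pou3f1, 0 in VH, and 10 had a difference below 0 (median −0.67). With the transcripts of a symbol summed, 5 were called higher in DH, among them Mpped1 (−0.82, adjusted p = 0.032), which was not called by transcript (adjusted p = 0.0546). The markers summed to between 636 and 854 FPKM in the DH libraries and between 324 and 406 in the VH libraries, with Fibcd1 and Lefty1 listed at 0. Wfs1 was the most abundant of them, and without it the sums were 430.0 to 507 FPKM in DH and 308 to 365 in VH. The regions did not overlap for 47.5% of all transcripts tested, the background of the marker sums given here and below. Of 12 markers of granule cells of the dentate gyrus, 3 were higher in DH, 0 in VH (median −0.45): Plk5 (10.2 and 6.61 FPKM in DH and 2.75 and 1.83 in VH, −1.5, adjusted p = 0.0199), Stxbp6 (76.7 and 75.9 FPKM in DH and 39.7 and 34.5 in VH, −1.02, adjusted p = 0.043) and Pdzd2 (11.3 and 11.6 FPKM in DH and 7.03 and 6.78 in VH, −0.65, adjusted p = 0.00931). Prox1, the defining factor of granule cells, was at 21.3 and 20.4 FPKM in DH and 14.5 and 9.8 in VH (−0.76, adjusted p = 0.129). The granule cell sums were 494 to 513 FPKM in DH and 318 to 388 in VH. The part that the proportion of subfields in each piece of tissue had in the differences given above, among them Gabrd and Gabra4 of granule cells and Wfs1 of CA1, was not tested. The calls of Plk5, Stxbp6 and Pdzd2 were lost without the second VH library (adjusted p = 0.139, 0.218 and 0.0711), and that of Pou3f1 without the first DH library (adjusted p = 0.123).

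Of 10 CA3 markers, Nnat was the only call, and the sum of the list (403 to 494 FPKM in DH, 1143 to 1320.4 in VH) was in VH mostly Nnat itself. Without Nnat the other 9 summed to between 261 and 307 FPKM in DH and between 296 and 304 in VH, and the regions overlapped. Of 11 CA2 markers, Rgs14 and Ntf3 were higher in DH and Amigo2, a cell adhesion protein, in VH (5.6 and 6.71 FPKM in DH and 9.04 and 10.7 in VH, 0.61, adjusted p = 0.0493), and the sums overlapped (792 to 915 and 786 to 804 FPKM). Without Pcp4, the most abundant, they did not, at 327 to 344 FPKM in DH and 261 to 265 in VH. Of 8 mossy cell markers, Nmb was higher in DH and Calb2 in VH, at 6.93 and 5.99 FPKM in DH and 13.6 and 13.5 in VH (adjusted p = 0.0465). Of 12 markers of the subiculum, Dlk1, Gpc3 and Etv1 were higher in VH and Bcl11b in DH, and the sums overlapped (147 to 178 and 154 to 164 FPKM). GABAergic interneuron markers lay toward VH, with 3 of 20 higher in VH, 0 in DH and 18 above 0 (median 0.33). The receptor tyrosine kinase Kit was at 29.3 and 29.5 FPKM in DH and 58.3 and 61.8 in VH (1.01, SE 0.07, adjusted p = 0.000791), and the homeobox factor Dlx1 at 6.41 and 6.6 FPKM in DH and 10.04 and 10.6 in VH (0.59, adjusted p = 0.0157). The third was Cck, which pyramidal cells also express. The GABA-forming enzymes Gad1 (0.42, adjusted p = 0.0692) and Gad2 (0.02, adjusted p = 1) and parvalbumin (−0.12, adjusted p = 0.647, Pvalb) were not called. The interneuron sums were 685 to 712 FPKM in DH and 879 to 888 in VH. Among these markers, the calls of Amigo2, Calb2, Gpc3, Etv1, Bcl11b, Dlx1 and Cck were lost without the second VH library (adjusted p = 0.25, 0.19, 0.183, 0.131, 0.104, 0.111 and 0.101), and that of Dlk1 without the first DH library (adjusted p = 0.098).

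**Figure D4:**
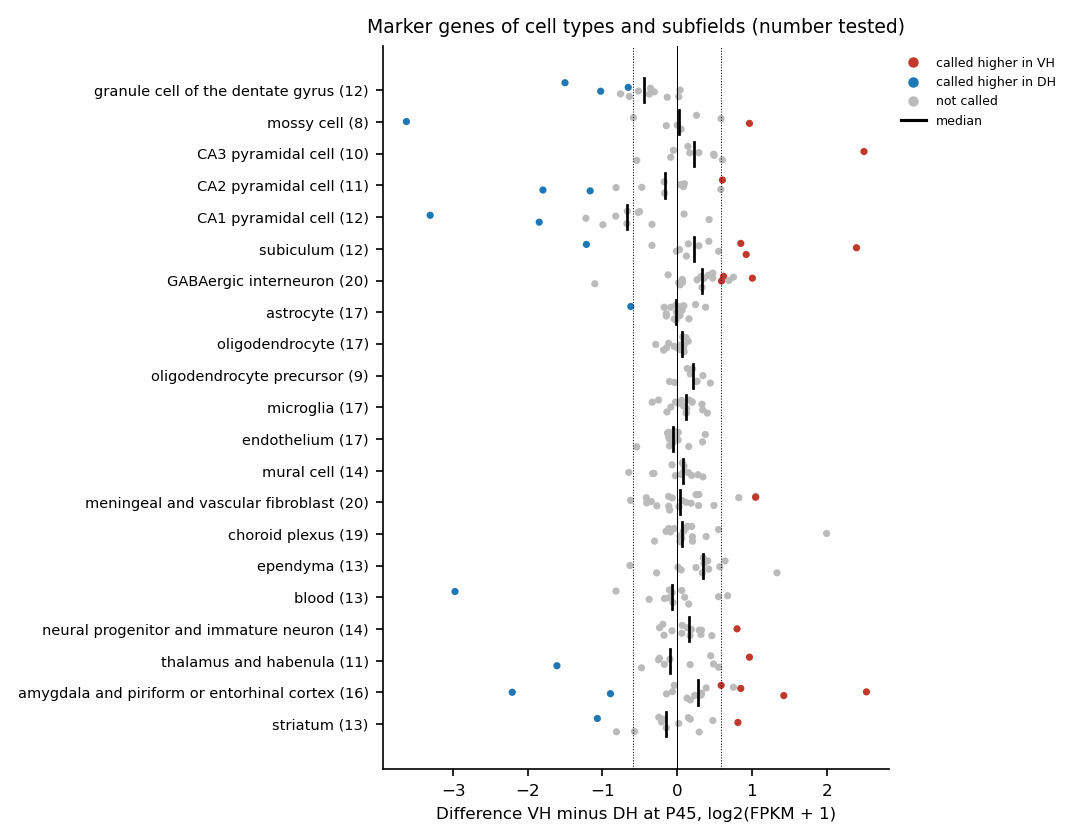
Log2 difference at P45 (VH minus DH, log2(FPKM + 1)) of the tested marker genes of each cell type or neighbouring region, with calls in red (VH) or blue (DH), the rest in grey, the median as a black bar and dotted lines at a fold change of 1.5. The medians of CA1 (−0.67) and of granule cells (−0.45) lie lowest, and the glial and vascular lists gather near 0.

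Of 17 astrocyte markers, Gfap, the intermediate filament of astrocytes, was the only call, at 510.4 and 495 FPKM in DH and 328 and 325 in VH (−0.62, SE 0.14, adjusted p = 0.0387), while Glul (−0.01, adjusted p = 1) and S100b (−0.02, adjusted p = 0.981) were not. The astrocyte sums overlapped, at 5646 to 5819 FPKM in DH and 5247 to 5647 in VH. Without S100b, the most abundant, they did not, at 4375 to 4411 FPKM in DH and 3928 to 4321 in VH. Of the markers of oligodendrocytes (17 tested), their precursors (9), microglia (17), endothelium (17) and mural cells (14), 0 were called, with medians from −0.05 to 0.21. The sums of the precursor markers were higher in both VH libraries, at 144 to 149 FPKM in DH and 171 to 173 in VH. Those of the microglial markers were too, by little, at 361 to 382 and 387 to 396 FPKM. Those of the other 3 lists overlapped. Of all transcripts tested, 47.5% did not overlap between the regions. Of 14 markers of progenitors and immature neurons, the cyclin Ccnd2 was higher in VH, at 39.4 and 49.9 FPKM in DH and 78.9 and 77 in VH (0.80, adjusted p = 0.00718), and the list summed to 457 to 460.3 FPKM in DH and 575 to 588 in VH. Of 20 fibroblast markers, Igfbp2 was the only call (5.55 and 9.99 FPKM in DH and 15.8 and 17.4 in VH). With the transcripts of a symbol summed, 2 were called higher in VH and 1 in DH. The calls of Gfap, Ccnd2 and Igfbp2 were lost without the second VH library (adjusted p = 0.18, 0.0555 and 0.188).

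Tissue that borders the hippocampus was checked through the same kind of list. Of 19 choroid plexus markers, 0 were called, 14 of the 20 listed lay below 1 FPKM and Otx2 was listed at 0, and they summed to 50.6 to 59.4 FPKM in DH and 53.7 to 77.5 in VH. Without Enpp2, the most abundant, the sums were 22.3 to 23.6 and 25.6 to 36.0 FPKM and did not overlap. Of 13 ependymal markers 0 were called and 11 had a difference above 0 (median 0.35). They summed to 41.3 to 52.9 FPKM in DH and 40.7 to 62.5 in VH, and without Rarres2, the most abundant, to 19.9 to 24.2 and 30.01 to 39.8, higher in both VH libraries. Of 13 blood markers Cd3e was the only call, and the sums, mostly haemoglobin, overlapped (1145 to 1352 and 1228 to 1259 FPKM). Of 16 markers of the amygdala and of piriform or entorhinal cortex, 4 were higher in VH (Nr2f2, Otof, Etv1 and Cdh9) and 2 in DH (Cyp26b1 and Slc30a3, a vesicular zinc transporter, −0.89), and the sums overlapped (315 to 335 and 324 to 335 FPKM). Without Slc30a3, the most abundant, they were 195 to 208 FPKM in DH and 261 to 266 in VH and did not overlap. Of 11 thalamic and habenular markers, Calb2 was higher in VH and Ramp3, a receptor activity-modifying protein, in DH (6.58 and 7.39 FPKM in DH and 2.38 and 1.02 in VH, −1.61, adjusted p = 0.039), and of 13 striatal markers, Penk in VH and Scn4b in DH. The thalamic and habenular list summed to 39.6 to 44.6 FPKM in DH and 45.6 to 48.8 in VH, higher in both VH libraries. The striatal list summed to 136.1 to 138.2 FPKM in DH and 120.6 to 121.2 in VH, higher in both DH libraries. Without their most abundant members, Calb2 and Ppp1r1b, the sums of each list overlapped. For the sums of bordering tissue too, the background is the 47.5% of all transcripts whose regions did not overlap. Several of these genes are expressed in the hippocampus itself, and the part of bordering tissue in the differences was not tested. Among these, the calls of Cd3e, Etv1, Cdh9, Ramp3 and Calb2 were lost without the second VH library (adjusted p = 0.0664, 0.131, 0.11, 0.217 and 0.19), those of Otof and Scn4b without the first DH library (adjusted p = 0.0613 and 0.0915) and that of Penk without the second DH library (adjusted p = 0.161).

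The most abundant calls were, toward DH, Camk2a, Ddn, Ppp3ca, Camk2b and Gfap. Ddn, the postsynaptic protein dendrin whose mRNA lies in dendrites, was at 824 and 708 FPKM in DH and 520.1 and 417 in VH (−0.71, SE 0.12, adjusted p = 0.0155), and Ppp3ca was at 832 and 692 FPKM in DH and 426 and 361 in VH. Toward VH they were Itm2c, Nnat, Crym, Caly and Cck. Itm2c, a BRI-family membrane protein, was at 579 and 504 FPKM in DH and 867 and 795 in VH (0.62, adjusted p = 0.0118), a difference near the fold threshold. Caly, a vesicle protein that binds clathrin light chain, was at 177 and 187 FPKM in DH and 289.9 and 294 in VH for 1 transcript (0.68, adjusted p = 0.015), but with its rows summed the difference was 0.43 and was not called. The calls of Ppp3ca, Caly and Cck were lost without the second VH library (adjusted p = 0.109, 0.10 and 0.101), and that of Ddn without the first DH library (adjusted p = 0.096), and Gfap and Itm2c lost theirs as well.

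The P45 differences were set beside those of P14 and P28, measured in other libraries. Of the 256 VH calls, 241 had the same direction at P14 and 244 at P28, and 133 (52.0%) and 153 (59.8%) were also called there, against 1.72% and 2.05% of all transcripts called higher in VH at those ages. Both VH libraries lay above both DH libraries for 226 (88.3%) at P14 and 230 (89.8%) at P28, against 23.2% and 24.5% of all transcripts. Of the 239 DH calls, 228 and 236 had the same direction, 106 (44.4%) and 147 (61.5%) were also called (against 1.82% and 2.02%), and the regions did not overlap for 215 (90.0%) and 226 (94.6%), against 22.7% and 23.3%. The median difference of the VH calls was 0.72, 0.80 and 0.93 in the order of age, and that of the DH calls −0.61, −0.77 and −0.86. The transcripts were chosen at P45, so its own median is not comparable with those of the other ages. In all, 115 VH and 95 DH calls were made at all 3 ages. Of the P45 calls, 85 and 81 were called at neither other age, and the test of the change between ages passed for 2 and 1 of them from P14 and for 2 and 1 from P28.

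Among the leading genes, Htr1b differed by 0.02 at P14, by −1.07 at P28 and by −1.96 at P45, and was called at P45 alone (change from P14 −1.99, limma adjusted p = 0.331). Nnat differed by 1.26, 1.73 and 2.5 and Npy2r by 1.57, 1.37 and 2.28, each called at all 3 ages, with changes from P14 of 1.24 (adjusted p = 0.285) and 0.71 (adjusted p = 0.621). Gabrd and Plk5, both genes of granule cells, are not among the leading genes and were called at P45 alone. Gabrd differed by −0.22, −0.21 and −0.99 and Plk5 by −0.11, −0.74 and −1.5. Their changes from P14 (−0.77, limma adjusted p = 0.418, and −1.39, limma adjusted p = 0.368) did not pass. Sv2b, also not a leading gene, differed by 0.42, 0.34 and 0.80. Its change was 0.38 from P14 (limma adjusted p = 0.146) and 0.46 from P28 (limma adjusted p = 0.162). Over all transcripts, the difference between regions changed at an adjusted p under 0.05 in 4 (0.0281%) from P14 to P45 and in 4 (0.0281%) from P28 to P45, and at an unadjusted p under 0.05 in 1181 and 1021.

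**Figure D5:**
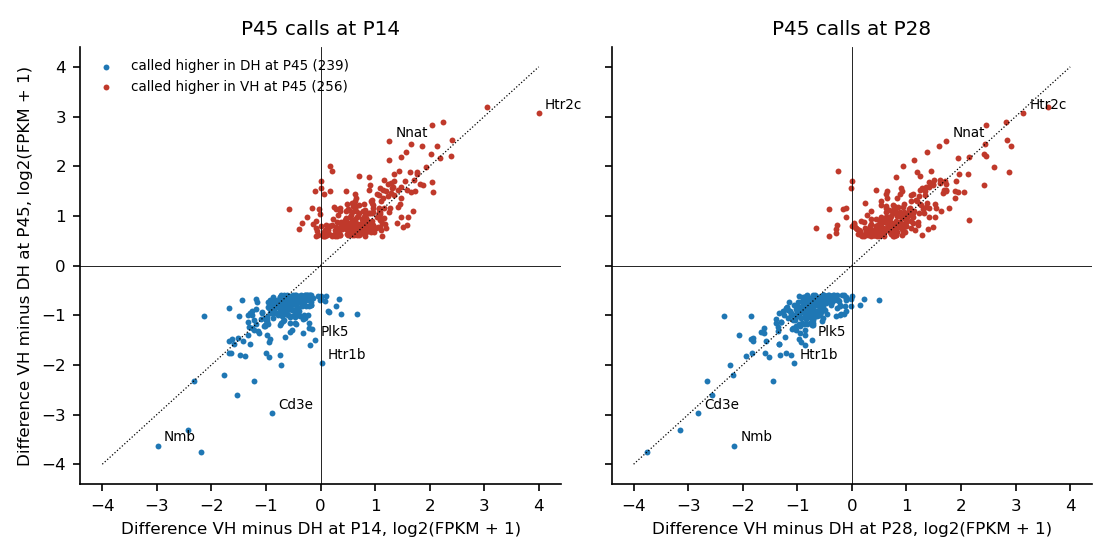
Log2 difference (VH minus DH, log2(FPKM + 1)) of the 256 VH calls (red) and the 239 DH calls (blue) of P45, on the vertical axis, against the difference of the same transcripts at P14 (left) and P28 (right), with a dotted line of equality. Most points keep their side of 0 at the other ages, 241 and 244 of the VH calls and 228 and 236 of the DH calls, and Htr1b lies near 0 at P14.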

How the data were processed

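Total RNA from DH and VH of rats at P14, P28 and P45 had been sequenced on an Illumina NextSeq500 after TruSeq preparation, in 12 libraries, 2 for each of the 6 groups. The authors mapped read pairs to the rn5 genome with TopHat 2 and deposited FPKM values for 17933 RefSeq transcripts. Their submission notes also name Bowtie2 2.1.0, Cufflinks 2.2.1, SAMtools 0.1.19 and R 3.3.0. The methods describe scaling of FPKM by the trimmed mean of M-values, and whether the deposited FPKM carry it could not be settled. Of 53489 values above 0 at P45, 999 lay under 0.001 FPKM, so the values are estimates and not whole reads, and no count model was run. The methods name edgeR for the authors' own tests.

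Here limma 3.58.1 (R 4.3.3) was fitted to log2(FPKM + 1) of all 12 libraries, with a mean per group and a trend in eBayes. Benjamini-Hochberg adjustment ran over the 14259 transcripts tested. Every adjusted p comes from limma. Nothing in the labels says that equal replicate numbers mark paired libraries, and no block was used. The fit was tested on simulated data. Python 3.11.15 with pandas 2.3.3, NumPy 2.4.6 and matplotlib 3.10.9 made the figures and tables. Genes named are the 10 largest calls in each direction, the called members of each gene or marker list (their levels for at most 4), the most abundant members of lists with fewer than 2 calls, the 5 smallest p of each change between ages, 6 checks (Actb, Gapdh, Nts, Cyp26b1, Nr2f2 and Cpne2) and the 5 most abundant calls in each direction. Members of lists named with a difference alone, and uncalled members such as Nov, Tpbg, Mpped1, Prox1, Gad1, Gad2 and Pvalb, were added after their values were seen. Some genes that meet these rules are not reported here. A symbol with several rows is given by its most abundant one, except for transcripts singled out by their own call or change. The Ntf3 transcript whose difference changed between ages is 1 of these. For a symbol with several rows, their sum is given where it ends the call. The comparison, members and lists were chosen with earlier results of these data known. Alternatives were another pseudocount (0.1), other filters and scalings, only the libraries compared, a replicate block, no trend, limma's treat, an adjusted p under 0.01, summed rows and leaving out each library.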

Additional observations from a re-analysis of the deposited data

Results flagged for a closer look

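The difference between VH and DH changed between ages, by limma's test of the change itself, for 5 transcripts, most of them near 0 FPKM outside 1 group. The Il21 transcript, of an interleukin, was at 0.745 and 0.747 FPKM in the P45 VH libraries and listed at 0 in the other 10, a change of 0.80 from P14 and 0.80 from P28. The Plec transcript NM_001164297, 1 of several of plectin, was at 1.58 and 2.34 FPKM in VH at P45 and at most 0.0243 elsewhere, a change of 1.55 from P14 and 1.57 from P28. The Ntf3 transcript NM_001270868 was at 0.544 and 0.512 FPKM in DH at P45 and near 0 elsewhere, a change of −0.61 from P14 and −0.61 from P28. Bcar1, a docking protein of integrin signalling, changed by 0.63 from P14, from 43.9 and 44.2 FPKM in DH and 31.0 and 31.5 in VH to 26.3 and 26.3 in DH and 28.5 and 30.1 in VH. It was the only one of the 5 above 3 FPKM. Tnp2, of a sperm nuclear protein, was at 0.547 and 0.537 FPKM in VH at P28 and listed at 0 in the other libraries, a change of −0.62 from P28.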

How the results depend on the processing

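Against 256 VH and 239 DH calls, limma on the 4 P45 libraries alone called 0 and 0, treat against a fold change of 1.5 called 19 and 13, and an adjusted p under 0.01 left 90 and 94. Leaving out each P45 library gave 80 to 180 VH and 71 to 218 DH calls, the fewest without the second VH library, in fits where the lone library of a group is assumed to vary like the other groups. With a pseudocount of 0.1, a filter at 1 FPKM, no filter, quantile normalization, median centring, no trend or summed rows, counts stayed within 1.5 times. The replicate block, in which equal numbers are paired, gave 156 VH and 174 DH calls, of which 145 and 156 were shared, and the duplicates' differences in DH and VH correlated at 0.0752, 0.0981 and 0.111 at P14, P28 and P45 over transcripts. Of the 4 transcripts whose difference changed from P14 to P45, the count was 0 with a filter at 1 FPKM, quantile normalization, median centring, only the libraries compared, the replicate block (paired), treat, summed rows or an adjusted p under 0.01, 1 without a trend, 10 with a pseudocount of 0.1 and 28 with no filter, and 1 to 10 without single libraries. From P28 to P45 it was 0 under the same settings except 2 with median centring, 1 without a trend, 17 with no filter, and 1 to 9 without single libraries. Of the 168 calls named or held by the lists, 167 kept their direction in every alternative run, and the Plec transcript reversed with its rows summed (−0.22, adjusted p = 0.272). Summed rows ended 6 of the 168 calls (Gria2, Plec, Caly, Kcnk2, Pde2a and Mgat4a) and raised the DH calls among CA1 markers from 2 to 5. That fit had its own adjustment over 13487 symbols, so adjusted p also moved for symbols with 1 row. Of the 168, no filter lost 37, no trend lost 10, a pseudocount of 0.1 lost 7 and treat lost 147. Quantile normalization and median centring lost 4 each, and a filter at 1 FPKM lost 2. The replicate block lost 64 of the 168, among the leading 19 only Htr2c (3.07, adjusted p = 0.0513). The cause was not tested. The table holds no read counts, so no floor by depth was set.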

Other observations

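Several calls belong to 1 transcript of a gene rather than to the gene. Of the 256 VH calls, 26 share their symbol with another transcript, and for 16 of these the sum of the rows was also called, and of the 239 DH calls 14 and 8. Pde2a, a cyclic nucleotide phosphodiesterase, differed by 1.88 for NM_031079 and by 0.38 when summed (limma adjusted p = 0.0962), and Mgat4a, a glycosyltransferase, by 1.91 and 0.27. Both were chosen after their values were seen, and both calls were also lost without the second VH library (adjusted p = 0.109 and 0.173).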
